A study of Mus musculus with 12 samples.

Results

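The EGR, NR4A and IER early genes are 9 genes of the early response to cell activation: Egr1, Egr2, Egr3, Nr4a1, Nr4a2, Nr4a3, Ier2, Ier3 and Ier5. They were taken by symbol from the array annotation, which gives them 20 probe sets that carry that symbol alone, out of 45037 probe sets and 18193 named genes. Their transcripts were read on Affymetrix arrays in B cells from mouse spleen, which had been enriched by removing cells with CD43 to a purity that the labels put above 98%. The 4 groups of 3 independent biological replicates were wild type cells without stimulation (day 0), EFLmDREAM transgenic cells without stimulation, and wild type and transgenic cells kept for 2 days with lipopolysaccharide (LPS, 20 µg/ml) and mouse interleukin 4 (IL-4, 10 ng/ml). EFLmDREAM is the label of a transgene of DREAM, the calcium-binding transcriptional repressor encoded by Kcnip3. Which promoter drives it, the strain and the age of the mice were not stated in the sources used here.

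Immediate early genes are transcribed within minutes of a stimulus from factors that are already in the cell, and their transcripts and proteins usually decay soon afterwards. EGR proteins are zinc finger transcription factors that bind GC-rich DNA, and NR4A proteins are orphan nuclear receptors that act without a known natural ligand, so that their level largely sets their activity. In B cells both families are induced through the antigen receptor and calcium, and Nr4a1, which encodes NUR77, is widely used as a reporter of receptor signalling. The IER genes share the name immediate early response rather than a protein family.

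Of the 9 members 6 have promoters in the RefSeq table of build GRCm38.p6, each 250 bases before to 50 bases after the start of transcription. They were searched on both strands for the half-site TGACG of the cyclic AMP response element, which CREB proteins bind, for the CArG box of serum response factor, for GTCA, the core of the element that DREAM binds, for the EGR site GCGNGGGCG and for kappa B sites. Every TGACG holds a GTCA on one of its strands. Shown here are Nr4a1, the member with the largest fall after stimulation, Nr4a2 and Egr2, which fell by less at their brightest probe sets, and Ier3, which did not fall and differed by genotype. Capitals mark TGACG or its complement and the CArG box.
Nr4a1, chr15:101266596-101266895, plus strand: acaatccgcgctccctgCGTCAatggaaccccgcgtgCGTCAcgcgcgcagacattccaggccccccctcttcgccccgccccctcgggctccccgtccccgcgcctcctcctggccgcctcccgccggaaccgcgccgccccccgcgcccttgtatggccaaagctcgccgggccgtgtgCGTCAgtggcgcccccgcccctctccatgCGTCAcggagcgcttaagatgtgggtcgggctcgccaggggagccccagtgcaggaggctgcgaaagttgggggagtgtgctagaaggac
Nr4a2, chr2:57123954-57124253, minus strand: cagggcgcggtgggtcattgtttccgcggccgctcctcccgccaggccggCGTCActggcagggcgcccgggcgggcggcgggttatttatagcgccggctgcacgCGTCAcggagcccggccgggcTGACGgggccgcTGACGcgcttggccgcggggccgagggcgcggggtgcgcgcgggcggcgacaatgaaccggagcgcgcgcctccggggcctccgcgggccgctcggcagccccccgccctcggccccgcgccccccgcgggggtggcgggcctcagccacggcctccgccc
Egr2, chr10:67537619-67537918, plus strand: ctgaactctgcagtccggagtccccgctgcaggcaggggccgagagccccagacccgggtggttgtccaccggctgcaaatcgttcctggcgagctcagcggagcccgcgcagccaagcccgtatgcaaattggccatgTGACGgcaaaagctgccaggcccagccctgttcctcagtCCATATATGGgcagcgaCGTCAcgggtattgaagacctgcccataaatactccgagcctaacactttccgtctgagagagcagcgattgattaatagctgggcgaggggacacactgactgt
Ier3, chr17:35821463-35821762, plus strand: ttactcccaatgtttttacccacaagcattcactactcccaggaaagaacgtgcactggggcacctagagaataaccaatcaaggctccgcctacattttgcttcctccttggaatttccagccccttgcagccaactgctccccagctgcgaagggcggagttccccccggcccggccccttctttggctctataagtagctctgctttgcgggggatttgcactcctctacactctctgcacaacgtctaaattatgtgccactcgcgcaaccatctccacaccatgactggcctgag
TGACG matched 4 times in the Nr4a1 promoter, 4 times in that of Nr4a2 and 2 times in this Egr2 promoter. It also matched 4 times in the Nr4a3 promoter, and 0 times in those of Ier3 and Ier5. TGACG is held by 20.8% of all 32851 listed promoters, GTCA by 85.2%, a kappa B site by 8.46%, GCGNGGGCG by 5.55% and a CArG box by 1.63%. Egr2 was the only one of the 6 members with a CArG box in a promoter searched. The EGR site matched 1 time each in the Nr4a1 and Nr4a2 promoters. A kappa B site matched 1 time in the Ier3 promoter, 1 time in that of Nr4a1 and 2 times, at overlapping bases, in another Egr2 promoter. These matches are letters in a window and were not tested as sites.

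The arrays of a group correlated at 0.984 to 0.997 and arrays of different states at 0.898 to 0.915. B cell identity genes (11 measured) had group means of 7.29 to 14.66 on the deposited log2 scale, above the array median in every group, and Spn, which encodes the depleted CD43, read 6.51 to 7.33. Medians over all probe sets of an array lay at 5.97 to 6.05 without and 5.36 to 5.41 with stimulation. The median change of all probe sets after stimulation of wild type cells was −0.40 as deposited and 0.037 after quantile normalization over the 12 arrays. Changes with stimulation are therefore given on the quantile-normalized scale, and levels and genotype differences on the deposited scale. Replicate 1 of the unstimulated wild type cells had an unusual actin signal, with a difference (5′ minus 3′ probe sets of actin, a sign of RNA quality) of −2.22 against −1.36 to −0.43 in the other 11 arrays. Levels below are log2 values, replicates 1 to 3 in that order, means are ± SD with n = 3 arrays, and changes are log2 differences ± SE from limma. A call is an adjusted p under 0.05, with p-values adjusted by Benjamini and Hochberg over all 45037 probe sets.

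The comparison of stimulated with unstimulated cells asked how the early genes stood 2 days after activation, well past their usual first wave. No group was kept for 2 days without LPS and IL-4. A change with stimulation therefore cannot be told apart here from a change with time since day 0. Most of the early genes were far lower at day 2. In wild type cells 16 of the 20 probe sets fell, 3 rose and 1 was not called, and in transgenic cells 16 fell, 1 rose and 3 were not called. Of all probe sets 56.8% were called in wild type cells (26.1% lower and 30.7% higher) and 55.2% in transgenic cells (25.1% lower and 30.1% higher). The arrays of the states did not overlap at 18 of the 20 in wild type and 19 in transgenic cells, where 61.3% and 64.6% of all probe sets were apart. The median change of the 20 probe sets was −1.85 and −1.99 in the respective genotypes, against 0.037 and 0.040 over all probe sets. On the deposited values 17 fell and 0 rose in wild type cells and 18 fell and 0 rose in transgenic cells, where 64.8% and 64.9% of all probe sets fell. With array medians subtracted 14 fell and 3 rose in each genotype, where 19.5% and 18% of all fell. Of all calls in wild type cells 82.1% were lower as deposited, 46% after quantile normalization and 29.1% with medians subtracted (82.5%, 45.4% and 26.7% in transgenic cells). In such bulk samples a smaller share of cells with a transcript and less of it per cell cannot be told apart.

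**Figure D1:**
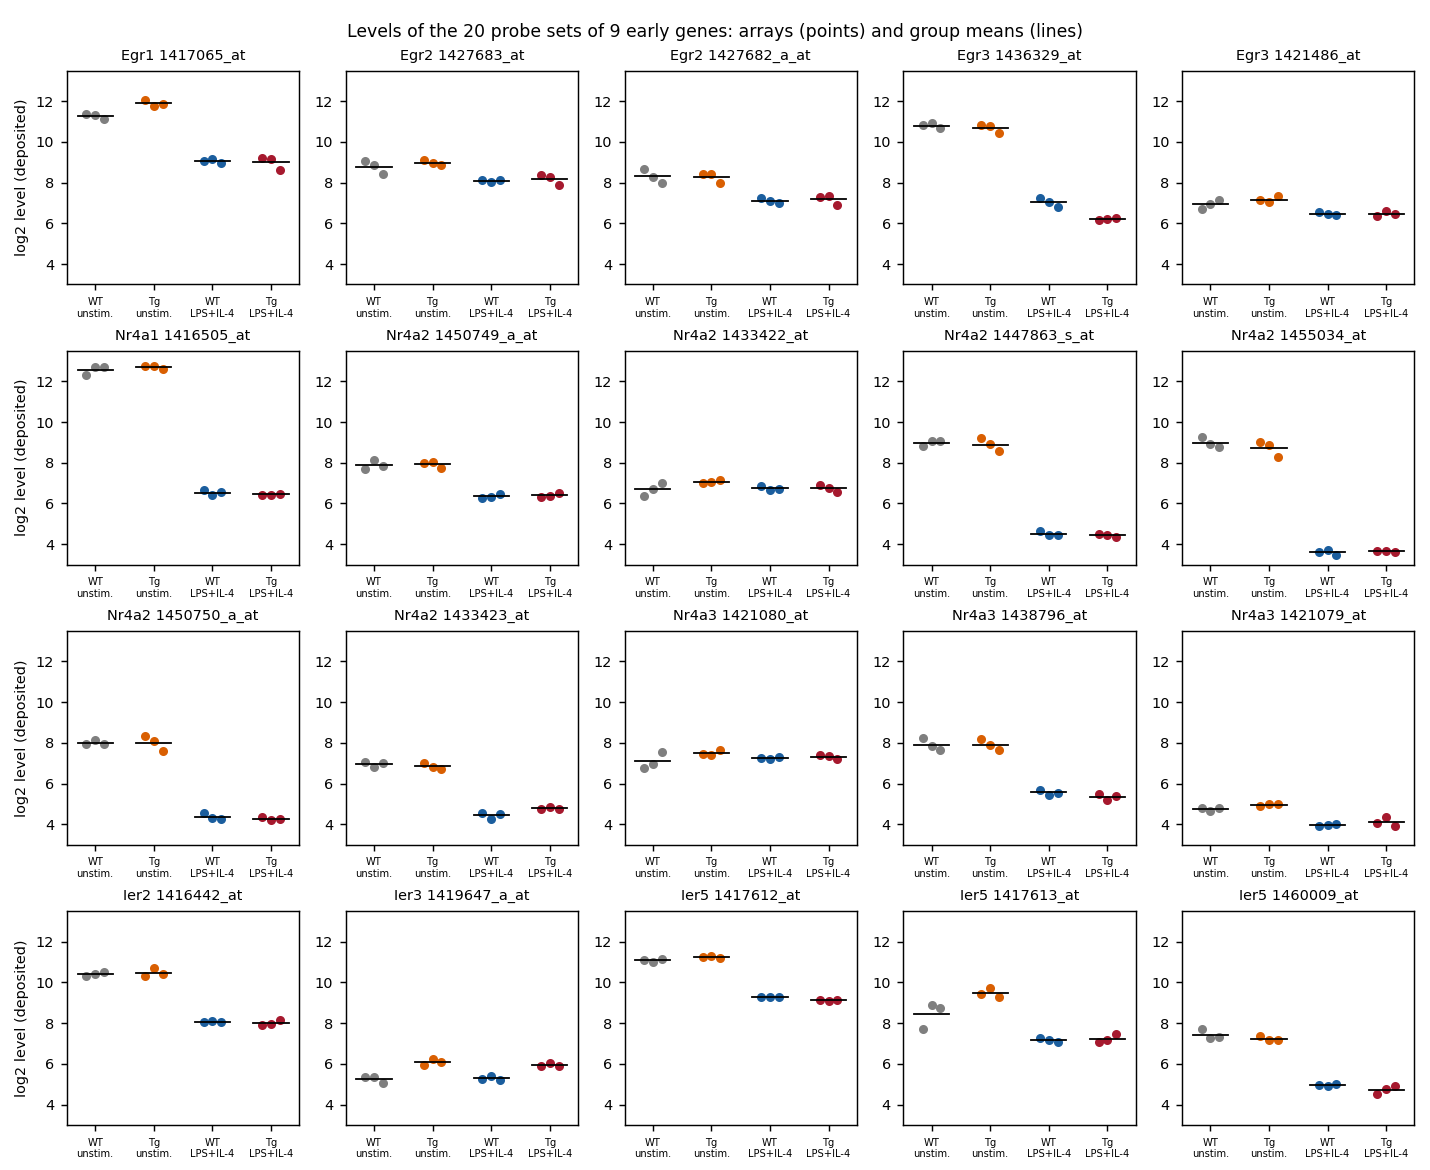
Deposited log2 levels (vertical axis) of the 20 probe sets in the 4 groups (horizontal axis), with 1 point per array, replicates 1 to 3 from left to right, and a line at the group mean. Nr4a1 lies at 12.30 to 12.74 in the 6 unstimulated arrays and at 6.41 to 6.64 in the 6 stimulated arrays, while Ier3 separates by genotype.

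Among the EGR genes, Egr1 encodes the factor that gives the family its name. Egr1 read 11.37, 11.31 and 11.13 in wild type and 12.05, 11.75 and 11.86 in transgenic unstimulated cells. After stimulation it read 9.07, 9.14 and 8.96 in wild type and 9.21, 9.14 and 8.62 in transgenic cells. The unstimulated arrays were all above the stimulated ones, and the stimulated genotypes overlapped. Egr1 fell by 2.38 ± 0.13 in wild type cells (5.20-fold, adjusted p = 5.89e-09) and by 2.99 ± 0.13 in transgenic cells (7.96-fold, adjusted p = 8.31e-10). The order of the group means was transgenic unstimulated (11.89 ± 0.15), wild type unstimulated (11.27 ± 0.12), wild type stimulated (9.06 ± 0.091) and transgenic stimulated (8.99 ± 0.32), of which the last 2 did not differ beyond their spread.

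Egr3, which with Egr2 restrains lymphocyte activation, showed the largest fall of the EGR genes, at 1 of its 2 probe sets. That probe set (1436329_at) read 10.81, 10.91 and 10.68 in wild type and 10.83, 10.78 and 10.44 in transgenic unstimulated cells. After stimulation it read 7.25, 7.06 and 6.79 in wild type cells and 6.16, 6.19 and 6.25 in transgenic cells, so that only the unstimulated genotypes overlapped. It fell by 3.65 ± 0.12 in wild type (12.6-fold, adjusted p = 7.47e-11) and by 4.33 ± 0.12 in transgenic cells (20.2-fold, adjusted p = 2.47e-11). The other Egr3 probe set (1421486_at) had group means between 6.47 and 7.17 and was not called in either genotype (0.09 ± 0.12 and −0.11 ± 0.12, adjusted p = 0.555 and 0.449). On the deposited scale this second probe set changed by −0.47 and −0.70 and was called. The 2 Egr3 probe sets thus disagreed about the size of the fall.

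Egr2 moved least among the EGR genes. Its brighter probe set (1427683_at) read 9.05, 8.88 and 8.42 in wild type and 9.11, 8.97 and 8.88 in transgenic unstimulated cells, against 8.14, 8.05 and 8.12 and then 8.36, 8.30 and 7.90 after stimulation. Its change was −0.48 ± 0.14 for wild type and −0.67 ± 0.14 for transgenic cells (adjusted p = 0.0112 and 0.0013). With array medians subtracted these changes were −0.06 and −0.16 and were not called. The other Egr2 probe set fell by 0.83 ± 0.17 and 0.74 ± 0.17 (adjusted p = 0.00109 and 0.00269).

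Nr4a1 showed the largest fall of all 20 probe sets. It read 12.30, 12.71 and 12.68 in wild type and 12.74, 12.74 and 12.59 in transgenic unstimulated cells. Stimulated cells read 6.64, 6.41 and 6.55 in wild type and 6.43, 6.42 and 6.48 in transgenic cells. The states were apart by more than 5 log2 units on every array, while the genotypes overlapped in each state. Nr4a1 fell by 5.81 ± 0.097 in wild type cells (55.9-fold, adjusted p = 3.99e-13) and by 5.95 ± 0.097 in transgenic cells (61.7-fold, adjusted p = 3.72e-13).

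Nr4a2, which encodes NURR1, had 6 probe sets, and 5 of them fell in each genotype. The largest measured difference was at 1455034_at, which read 9.28, 8.91 and 8.75 in wild type and 9.01, 8.87 and 8.29 in transgenic unstimulated cells. Stimulated levels there were 3.63, 3.71 and 3.46 in wild type and 3.66, 3.66 and 3.62 in transgenic cells, 1.78 and 1.75 below the array medians on average. The difference was −5.15 ± 0.18 (adjusted p = 9.96e-11) in wild type and −4.88 ± 0.18 (adjusted p = 1.94e-10) with the transgene. No fold is given for it, since how far such low levels lie above background was not tested. The probe sets 1447863_s_at and 1450750_a_at fell by 4.11 and 3.15 in wild type cells, 1433423_at by 1.94, and the brightest, 1450749_a_at, by 1.03 (adjusted p between 2.51e-10 and 8.14e-06). Stimulated wild type means minus the array medians were −0.86 at 1447863_s_at, −1 at 1450750_a_at and −0.92 at 1433423_at. Their distance from background was not tested either. The remaining probe set (1433422_at) was higher by 0.60 ± 0.13 in wild type stimulated cells (adjusted p = 0.00186) and not called in transgenic cells (0.26 ± 0.13, adjusted p = 0.125). On the deposited scale its changes were 0.06, not called (adjusted p = 0.678), and −0.32, called lower (adjusted p = 0.0494). The transgenic change was called higher with array medians subtracted (0.32, adjusted p = 0.0448) and in a fit of the transgenic arrays alone (0.26, adjusted p = 0.0395), so its direction depends on the scaling.

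Nr4a3, which encodes NOR1, had 3 probe sets of unlike behaviour. At 1438796_at it read 8.24, 7.83 and 7.65 in wild type and 8.17, 7.92 and 7.65 in transgenic unstimulated cells. After stimulation the same probe set read 5.71, 5.43 and 5.56 in wild type and 5.48, 5.22 and 5.4 in transgenic cells. The change was −1.81 ± 0.16 without and −2.06 ± 0.16 with the transgene (adjusted p = 6.36e-07 and 2.01e-07). The dimmest probe set (1421079_at), below the array median in every group, fell by 0.31 ± 0.10 and 0.34 ± 0.10 (adjusted p = 0.0211 and 0.0133). These calls were lost with array medians subtracted (−0.17 and −0.21), the wild type one without unstimulated or stimulated replicate 1 (−0.28 and −0.29, adjusted p = 0.0567 and 0.0645) and the transgenic one without stimulated replicate 3 (−0.23, adjusted p = 0.0637). The brightest (1421080_at) was higher by 0.63 ± 0.16 in wild type (adjusted p = 0.00537), with 0.31 ± 0.16 in transgenic cells (adjusted p = 0.126). As deposited, these changes were 0.16 and −0.17 and neither was called.

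Among the IER genes, Ier2, a nuclear regulator of transcription, and Ier5, a cofactor of heat shock factor, were both lower after stimulation. Ier2 read 10.29, 10.39 and 10.49 in wild type and 10.29, 10.71 and 10.40 in transgenic unstimulated cells, and 8.03, 8.10 and 8.04 and then 7.89, 7.96 and 8.16 after stimulation. Only the states were apart, and the change was −2.30 ± 0.11 (4.92-fold lower) for wild type and −2.45 ± 0.11 (5.46-fold lower) for transgenic cells (adjusted p = 1.83e-09 and 1.19e-09). Ier5 at its brightest probe set (1417612_at) read 11.10, 11 and 11.15 in wild type and 11.26, 11.31 and 11.19 in transgenic unstimulated cells. With stimulation it read 9.30, 9.28 and 9.28 in wild type and 9.15, 9.06 and 9.13 in transgenic cells. The change was −1.98 ± 0.069 and −2.28 ± 0.069 (adjusted p = 9.83e-11 and 4.19e-11). At 1460009_at Ier5 changed by −1.88 and −1.93, and at 1417613_at by −0.93 ± 0.27 in wild type cells (adjusted p = 0.0101) and −2.06 ± 0.27 in transgenic cells (adjusted p = 2.55e-05). The wild type value at 1417613_at was −1.37 without unstimulated replicate 1 and −0.69, no longer called (adjusted p = 0.0522), without unstimulated replicate 2.

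Ier3, a regulator of cell survival that is induced by NF-kB, was the only member with no probe set that fell on the quantile-normalized scale. It read 5.33, 5.37 and 5.05 in wild type and 5.96, 6.23 and 6.07 in transgenic unstimulated cells, and 5.26, 5.41 and 5.21 and then 5.87, 6.05 and 5.89 after stimulation. The deposited levels of the states overlapped within each genotype. On the quantile-normalized scale Ier3 was higher after stimulation by 0.64 ± 0.11 in wild type (adjusted p = 0.000224) and 0.48 ± 0.11 in transgenic cells (adjusted p = 0.00209). On the deposited scale the changes were 0.04 and −0.15 and neither was called (adjusted p = 0.709 and 0.2), so the rise depends on the scaling.

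**Figure D2:**
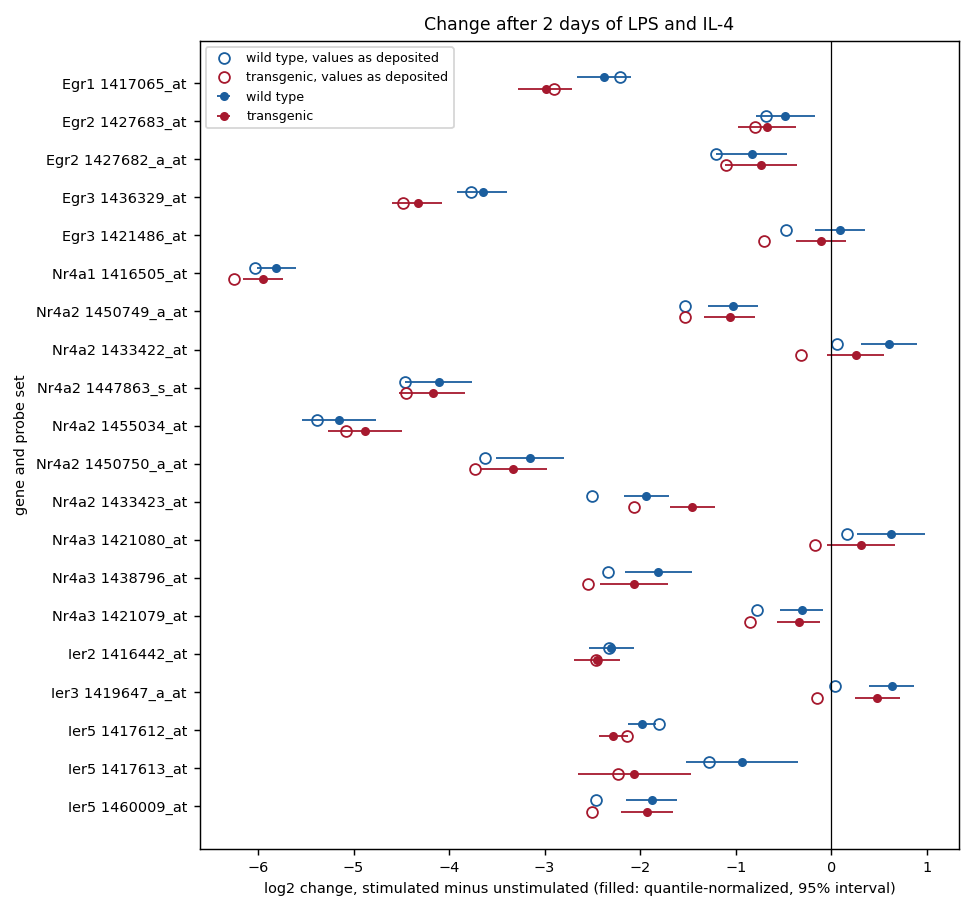
Log2 change from unstimulated to stimulated cells (horizontal axis) at each of the 20 probe sets (vertical axis) in wild type and transgenic cells. Filled points with 95% intervals are quantile-normalized and open circles are values as deposited. Nr4a1 lies farthest left, at −5.81 and −5.95, and Ier3 lies right of 0 at its filled points.

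The fall was shared by other early response genes of a list written from general knowledge. Earlier results of these data were known when the list was written, so its counts are not independent of them. Of 50 such genes, taken at their brightest probe set, 42 fell and 3 rose in wild type cells and 43 fell and 1 rose in transgenic cells. Among all 18193 genes 24% fell and 36% rose in wild type cells and 23.3% and 35.2% in transgenic cells. The list's median change was −2.01 and −2.09, against 0.08 and 0.083 over all genes. The largest were Fosb, a subunit of AP-1 (−7.15 ± 0.099 in wild type and −7.39 ± 0.099 in transgenic cells), the zinc finger factor Klf4 (−6.95 ± 0.12 and −7.13 ± 0.12) and Rgs2, a regulator of G protein signalling (−6.06 ± 0.082 and −5.59 ± 0.082). On the deposited scale, where 64.8% and 64.9% of all probe sets fell, 42 and 47 of the 50 fell and 0 rose. With array medians subtracted, where 19.5% and 18% of all fell, 39 and 37 fell and 7 and 6 rose.

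Beside the list counts that follow, 36% of all genes rose and 24% fell in wild type cells, and 35.2% and 23.3% in transgenic cells. No list was tested against these shares. Of 30 measured regulators upstream of early gene transcription, 21 fell and 3 rose in wild type and 17 fell and 3 rose in transgenic cells, with medians of −0.58 and −0.55. They were led by Mef2d, a calcium-responsive factor of the Nr4a1 promoter (−2.80 ± 0.081 in wild type cells), the kinase Prkcb of the antigen receptor pathway (−2.05 ± 0.078), and in wild type cells the kinase Rps6ka3 (−1.83 ± 0.12), in transgenic cells Nfatc1 (−1.74 ± 0.069), a target of calcineurin. Of 8 partners and corepressors 2 rose and 2 fell in wild type cells, and 3 rose and 1 fell in transgenic cells. The RNA helicase Ddx20, which binds EGR proteins, rose by 1.09 ± 0.093 and 1.18 ± 0.093, and Rxra, a dimer partner of NR4A1 and NR4A2, by 0.75 ± 0.077 and 0.57 ± 0.077 (3 and 1 of its 3 probe sets). Rxrb, another such partner, fell by 0.79 ± 0.069 in transgenic cells. Nab2, a corepressor of EGR proteins that EGR factors induce, fell by 0.70 ± 0.086 in wild type cells (adjusted p = 1.27e-05), and its change in transgenic cells was −0.16 ± 0.086 (adjusted p = 0.132). None of the 8 partners and corepressors was called in the interaction, so the Nab2 change is not shown to differ between the genotypes. Among 17 genes described as EGR or NR4A targets in lymphocytes, a list that also holds Nab2, 7 rose and 10 fell in wild type cells. In transgenic cells 5 rose and 7 fell. Here the ubiquitin ligase Cblb changed by −4.24 ± 0.095 and −4.71 ± 0.095, the diacylglycerol kinase Dgka by −2.43 ± 0.075 and −2.20 ± 0.075, and Socs1, an inhibitor of cytokine signalling, by 2.40 ± 0.12 and 2.41 ± 0.12. Markers of B cells fell too, 9 of 11 in each genotype, with medians of −1.17 and −1.11. Markers of other cell types moved as well. In wild type cells 8 of 12 granulocyte, 10 of 18 myeloid, 6 of 9 erythroid, 7 of 14 T and NK cell and 3 of 9 platelet markers fell, and in transgenic cells 12, 14, 8, 9 and 4 of them. In each genotype 2 myeloid markers rose, the scavenger receptor Marco (1.93 and 3.03) and Clec4f (0.30 and 0.27), and so did 1 T and NK cell marker in wild type cells and 1 and 2 platelet markers. The part of these markers' cells in the fall of the early genes was not tested.

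**Figure D3:**
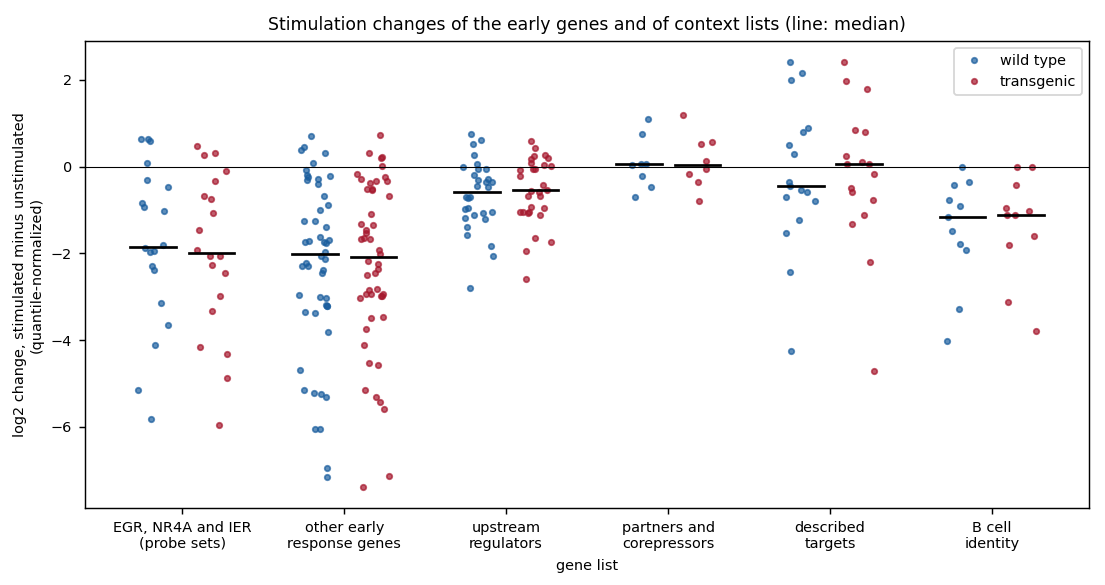
Log2 change from unstimulated to stimulated cells (vertical axis, quantile-normalized) for the 20 probe sets of the EGR, NR4A and IER genes and for the genes of 5 context lists at their brightest probe set (horizontal axis), with a line at each median. The early genes and the other early response genes have medians between −2.09 and −1.85, and the upstream regulators −0.58 and −0.55.

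The genes whose pattern over the 12 arrays lay nearest to each member were found by root mean square distance between quantile-normalized values, each gene centred on its mean, among 16329 genes. Nearest to Nr4a1 were Tsc22d3, the glucocorticoid-induced leucine zipper (distance 0.19), and Rgs2 (0.252). Egr3 lay nearest to Fcmr, the IgM receptor (0.169), and Klf2, a factor of quiescence and homing (0.23), and Egr1 nearest to Ap1s2 (0.2) and Ypel3 (0.203). For Ier2 the nearest were Lsp1 (0.102) and Phf1 (0.138), and for Ier5 Gpr171 (0.0987) and Inpp5f (0.108). Ier3 had Plxnd1 (0.13) and Fndc3b (0.147) as its nearest genes. At their brightest probe sets Egr2 lay nearest to Zfp729a (0.0683) and Tlr3 (0.0825), Nr4a2 to Snapin (0.0979) and Lgals8 (0.107), and Nr4a3 to Lce1h (0.0798) and Ss18l1 (0.0875). The median distance of all genes from a member was 0.382 (Nr4a3) to 2.99 (Nr4a1). Among the members themselves Ier2 and Ier5 lay closest (0.17), followed by Egr1 and Ier2 (0.335).

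The comparison of the genotypes without stimulation asked whether the EFLmDREAM transgene went with other levels of these genes. Egr1, Ier3 and 1 probe set of Ier5 were higher in transgenic cells, and no member was lower. The 3 called probe sets are 15% of the 20, where 9.45% of all probe sets were called (4.47% higher and 4.98% lower). The groups did not overlap at 6 of the 20, and at 24.3% of all probe sets. Of all calls 52.7% were lower as deposited and 63.7% with array medians subtracted, which called the same number of members. The median difference of the 20 was 0.10, against 0.0067 over all probe sets. None of the 10 NR4A probe sets was called, their differences running from −0.26 to 0.40.

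Ier3 differed most clearly: all 3 transgenic arrays (5.96 to 6.23) lay above all 3 wild type arrays (5.05 to 5.37), a difference of 0.84 ± 0.10 (adjusted p = 0.000311). Its wild type mean minus the array medians was −0.74. No fold is given for Ier3, since its distance from background was not tested. Egr1, at 11.13 to 11.37 in wild type and 11.75 to 12.05 in transgenic cells, was higher by 0.62 ± 0.14 (1.53-fold, adjusted p = 0.0155). Without transgenic replicate 1, the highest array, Egr1 differed by 0.53 and was not called (adjusted p = 0.068). Ier5 at 1417613_at read 7.71, 8.88 and 8.74 in wild type and 9.41, 9.72 and 9.28 in transgenic cells, a difference of 1.03 ± 0.24 (2.04-fold, adjusted p = 0.0174). The low wild type value is replicate 1, the array with the actin difference of −2.22, and without it the Ier5 difference was 0.66 (adjusted p = 0.0107). Without transgenic replicate 2 it was 0.90 and not called (adjusted p = 0.0669), as in a fit of these 6 arrays alone (adjusted p = 0.0948). The other Ier5 probe sets differed by 0.17 ± 0.070 and −0.20 ± 0.12 and were not called (adjusted p = 0.156 and 0.335), so the 3 probe sets of Ier5 disagreed.

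The same array was lowest of its group, ties included, at 9 of the 20 probe sets and highest at 8. Nr4a1 and Ier2, which both fell after stimulation, were among the 9. So were 1421486_at of Egr3 (6.72, against 6.93 and 7.16), 1433422_at of Nr4a2 (6.35, against 6.73 and 6.99) and 1421080_at of Nr4a3 (6.77, against 6.98 and 7.54). These last 3 are the probe sets that did not fall with their genes on the quantile-normalized scale. Their genotype differences were 0.23 ± 0.12, 0.38 ± 0.14 and 0.40 ± 0.15 (adjusted p = 0.246, 0.11 and 0.128), and 0.12, 0.21 and 0.23 without that array. Without wild type replicate 3, whose value was the highest of the 3 at each, the last 2 were called at 0.53 and 0.62 and the count of called probe sets was 5. The part of RNA quality in these values was not tested.

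Egr2 (0.20 ± 0.15 and −0.050 ± 0.17 at its 2 probe sets), Egr3 at 1436329_at (−0.12 ± 0.12), Nr4a1 (0.13 ± 0.11) and Ier2 (0.080 ± 0.11) did not pass between the unstimulated genotypes (adjusted p between 0.459 and 0.906). The 95% interval of the difference was −0.10 to 0.36 for Nr4a1 and −0.16 to 0.31 for Ier2, so a difference within those bounds could not be told from 0 with 3 arrays per group.

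**Figure D4:**
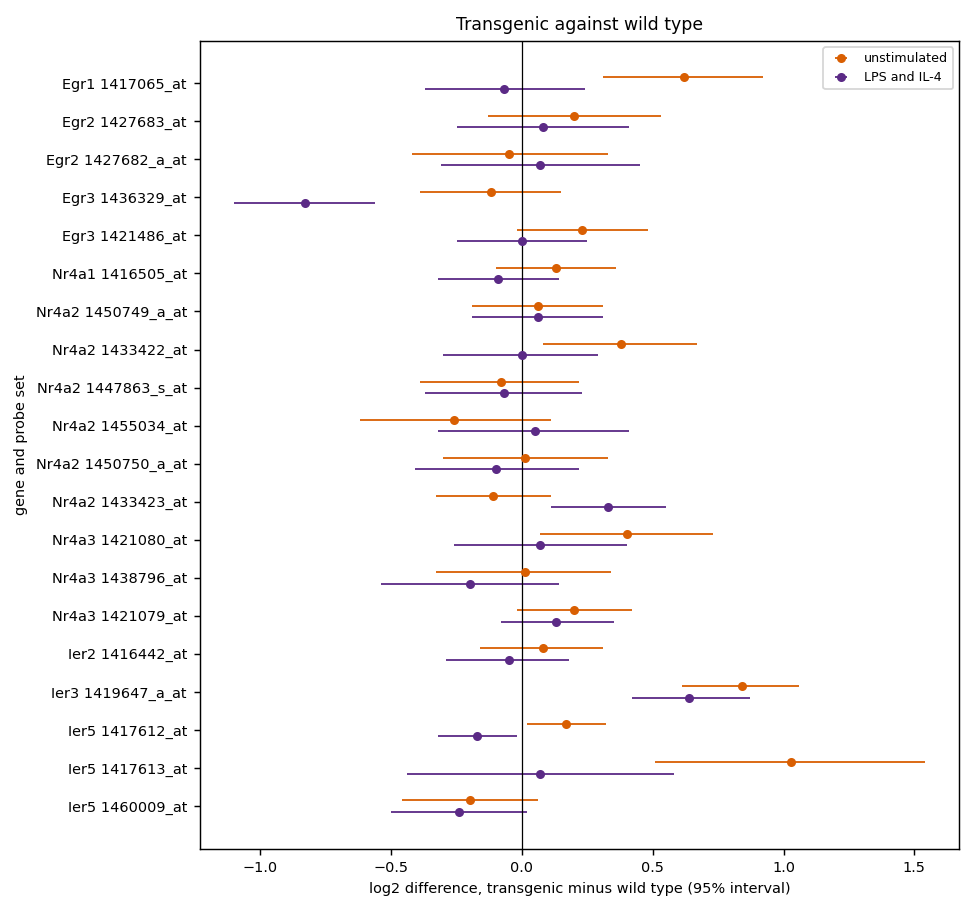
Log2 difference between transgenic and wild type cells (horizontal axis) at the 20 probe sets (vertical axis), unstimulated and after LPS and IL-4, with 95% intervals from limma. Ier3 lies right of 0 in both states (0.84 and 0.64), and Egr3 at 1436329_at lies at −0.83 in stimulated cells.

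Markers of other cell types moved with the same comparison. In unstimulated transgenic cells 12 of 12 measured granulocyte markers, 14 of 18 myeloid markers (monocyte, macrophage and dendritic cell genes), 7 of 9 erythroid, 5 of 14 T and NK cell and 2 of 9 platelet markers were higher, and none was lower. The summed level of the granulocyte markers was 1002 to 1096 in wild type and 10778 to 15719 in transgenic arrays, in linear array units, and that of the myeloid markers 4711 to 5840 and 9326 to 13758. Erythroid markers summed to 617 to 974 and 1767 to 2455. In wild type cells 4 of the 12 granulocyte markers lay below the array median, and in transgenic cells 0 did. The part of these cells in the higher Egr1, Ier3 and Ier5 was not tested.

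**Figure D5:**
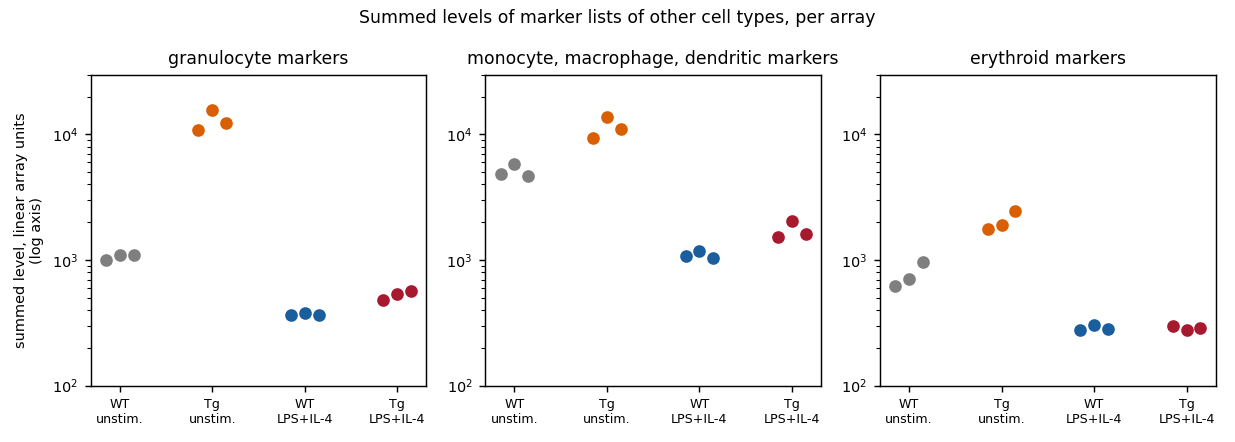
Summed linear level (vertical axis, log scale) of the granulocyte, myeloid and erythroid marker lists in each array of the 4 groups (horizontal axis), replicates 1 to 3 from left to right. Unstimulated transgenic arrays lie highest in all 3 lists, with 10778 to 15719 for granulocyte markers, and after stimulation the transgenic arrays hold 482 to 571.

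In the other lists 3 of the 50 other early response genes were higher and 5 lower in unstimulated transgenic cells, led by the kinase Plk2 (−2.01 ± 0.083, at 1 of its 2 probe sets), the MAP kinase phosphatase Dusp4 (−1.39 ± 0.33) and the clock gene Per1 (−0.95 ± 0.14). Their median difference was 0.07, against 0.013 over all genes, of which 5.45% were higher and 4.9% lower. Of the upstream regulators 0 were higher and 1 of 30 was lower, Mef2c, a factor of B cell activation (−0.28 ± 0.076, adjusted p = 0.0354, at 2 of its 5 probe sets). Nab2 was lower by 0.59 ± 0.085 (adjusted p = 0.000899), and so was the histone demethylase Kdm1a (−0.42 ± 0.11, at 1 of its 2 probe sets), the 2 lower among 8 partners and corepressors. Of the 17 described targets 1 was higher, the cell cycle inhibitor Cdkn1a (0.87 ± 0.12, at 1 of its 2 probe sets), and 4 were lower. The 4 include Socs3, an inhibitor of cytokine signalling (−0.69 ± 0.13), and Nab2, which is counted in both lists.

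After stimulation the genotypes differed at 2 members: Ier3 was again higher in transgenic cells and Egr3 was lower. The 2 called probe sets are 10% of the 20, where 1.86% of all probe sets were called (0.868% higher and 0.995% lower). The groups did not overlap at 4 of the 20, and at 19% of all probe sets. Ier3 differed by 0.64 ± 0.10 (adjusted p = 0.00547), with the transgenic arrays at 5.87 to 6.05 and the wild type arrays at 5.21 to 5.41. The wild type mean of Ier3 minus the array medians was −0.08, and again no fold is given. Egr3 at 1436329_at, at 6.16 to 6.25 in transgenic and 6.79 to 7.25 in wild type cells, differed by −0.83 ± 0.12 (1.78-fold lower, adjusted p = 0.00314). Its other probe set gave equal means of 6.47 (adjusted p = 1), so the Egr3 difference rests on 1 of 2 probe sets. Leaving out single arrays kept Ier3 between 0.59 and 0.70 and Egr3 between −0.95 and −0.72, called each time. The calls of both also held with the replicate number as a block.

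Egr1 differed by −0.070 ± 0.14 between the stimulated genotypes (95% interval −0.37 to 0.24, adjusted p = 0.948), and Ier5 at 1417613_at by 0.070 ± 0.24 (adjusted p = 0.972). Nr4a1 differed by −0.090 ± 0.11 (95% interval −0.32 to 0.14), and none of the 10 NR4A probe sets was called, with differences from −0.20 to 0.33. Granulocyte markers were higher in 3 of 12 cases (summed level 482 to 571 in transgenic and 364 to 378 in wild type arrays) and myeloid markers in 3 of 18 (1522 to 2058 and 1032 to 1179), while 0 of 9 erythroid markers were called. Of the T and NK cell markers 1 of 14 was higher, the chemokine Ccl5 (1.13, summed level of the list 1307 to 1372 against 1031 to 1064), and of the platelet markers 1 of 9, Pf4 (1.37, summed level 676 to 782 against 499 to 505), so that these sums did not overlap between the genotypes either. The Ier3 difference was 0.64 in this state and 0.84 in the unstimulated one. The part of these markers' cells in either difference was not tested.

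Ier3 lies on chromosome 17 between genes that mostly did not differ. Of the 10 measured genes on each side of it, 1 of 20 was called between the unstimulated genotypes, Tcf19 (0.38 ± 0.10), and 0 between the stimulated ones. Flot1, the next gene on one side, differed by 0.25 ± 0.085 and −0.060 ± 0.085 (adjusted p = 0.0847 and 0.901). Over the same number of neighbours 5% to 25% were called for the 9 members without stimulation and 0% to 10% with it, where 10.4% and 2.34% of all genes were called.

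Of the 50 other early response genes 5 were higher and 4 lower in stimulated transgenic cells, and 1.24% and 1.1% of all genes were. The largest differences were in the phosphatase Dusp2 (−1.16 ± 0.093), Klf2 (−1.04 ± 0.078) and Dusp1, a phosphatase of MAP kinases (0.82 ± 0.11). None of the upstream regulators, partners or described targets was called, with medians of −0.08, −0.10 and −0.08.

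Whether stimulation moved a member differently in the genotypes was tested by the interaction. None of the 20 probe sets passed limma's test at an adjusted p under 0.05, where 1.58% of all probe sets were called. Egr3 at 1436329_at came nearest (−0.72 ± 0.18, adjusted p = 0.0697), and with the replicate number as a block it passed (−0.72, adjusted p = 0.0368). Replicate 3 of all 4 groups was also the array with low Y-linked Eif2s3y (3.33 to 3.78, against 8.27 to 9.55 in replicates 1 and 2), a difference that goes with the block and whose part in this call was not tested. Egr1 had an interaction of −0.68 ± 0.20 (adjusted p = 0.127) and Ier5 at 1417613_at of −0.96 ± 0.34 (adjusted p = 0.223), so their higher level in unstimulated transgenic cells is not shown to differ from the stimulated state. For Ier3 the interaction was −0.19 ± 0.15, with a 95% interval of −0.51 to 0.13. Among the other early response genes 2 had a positive and 4 a negative interaction (0.588% and 1.39% of all genes). In front were Plk2 (2.31 ± 0.12, at 1 of its 2 probe sets), Dusp2 (−1.29 ± 0.13) and Klf2 (−1.03 ± 0.11).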

How the data were processed

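RNA (4 µg per array) of 12 samples was hybridised to 12 arrays, 3 per group. The deposited file holds log2 levels per probe set, for which the submitters' processing notes name RMA and affy without a version. They do not say whether all arrays were normalized in 1 set.

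Leaving out 64 controls left 45037 of 45101 probe sets, of which the platform annotation gave 1 symbol to 34945, several to 932 and none to 9160. All groups were fitted together with limma 3.58.1 in R 4.3.3 (8 residual and 4.71 prior degrees of freedom, 2-sided), after a test on simulated data. Genotype contrasts and the interaction used deposited values, stimulation contrasts quantile-normalized ones. In context lists a gene was taken at its brightest probe set over the 12 arrays. All members were named, with up to 3 called genes of largest change per list and contrast and the 2 nearest genes per member. Members and lists were chosen with earlier results of these data known.

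Deviations from the group means of arrays with the same replicate number correlated at 0.33, 0.101 and 0.178 between the stimulated genotypes and at 0.318, 0.175 and 0.19 for wild type stimulation, all above 0.1, so the numbers were taken to pair those arrays. Between the unstimulated genotypes (0.078, 0.07 and 0.297) and for transgenic stimulation (0.069, −0.16 and 0.115) they were not taken to. The Y-linked Eif2s3y was low (3.33 to 3.78) in replicate 3 of all 4 groups and read 8.27 to 9.55 in replicates 1 and 2, so the number also goes with that gene in every group. The fit without this pairing was kept, with the replicate block as an alternative. The number of arrays limits the precision.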

Additional observations from a re-analysis of the deposited data

How the results depend on the processing

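Counts of called member probe sets were recomputed with the other scaling, with array medians subtracted, with probe sets above a mean of 5 alone, with an intensity trend in the prior, with the compared groups alone (which for the interaction are all 4), with the replicate number as a block and without each array in turn. The stimulation counts ran from 17 to 19 in wild type and from 16 to 19 in transgenic cells, against 19 and 17, and the count between stimulated genotypes was 2 throughout. Between the unstimulated genotypes it was 2 to 3 under the other settings and 2 to 5 without single arrays, against 3. The interaction count of 0 was 1 with the replicate block and 0 to 1 without single arrays: Egr3 at 1436329_at was called with the block, without transgenic unstimulated replicate 3 (−0.84, adjusted p = 0.0392) or without wild type stimulated replicate 3 (−0.84, adjusted p = 0.0381), and Nr4a3 at 1421080_at without wild type unstimulated replicate 3 (−0.55, adjusted p = 0.0486). The block changed no other call of a member. On the deposited scale the stimulation change of Egr3 at 1421486_at turned to −0.47 in wild type cells, and those of Nr4a2 at 1433422_at and Ier3 turned to −0.32 and −0.15 in transgenic cells, because that scale is lower in stimulated arrays. Of 1295 single values recomputed, 15 lost a call and 13 gained one. The sign changed in 42, of which 3 were called in at least 1 of the settings compared, those given above, and 0 were called in both. The deposited values carry no detection calls, so for levels below the array median, such as Nr4a2 at 1455034_at after stimulation and Ier3 in wild type cells, the distance from background was not tested.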
